A study of Mus musculus with 16 samples.

Results

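The Krüppel-like factor (KLF) genes were described here from chromatin immunoprecipitation followed by sequencing (ChIP-seq) of immortalized mouse embryonic fibroblasts. The 10 genes Klf2, Klf3, Klf4, Klf5, Klf6, Klf7, Klf9, Klf10, Klf11 and Klf13 were chosen by name, with earlier results of these data known, out of 21883 protein-coding genes. Every listed region within 50 kb of their mm10 gene bodies was taken, which gave 11 of 10888 succinyllysine regions, 25 of 26654 H3K4me3 regions and 1 of 98342 H3K27me3 regions. The experimental line was R26M2rtTA/+;TetOcre;Sdhcfl/fl, with 2 floxed copies of Sdhc, and the control line was R26M2rtTA/+;TetOcre;Sdhcfl/wt, with 1 floxed and 1 wild-type copy. Both lines carried the doxycycline-dependent activator rtTA and a Cre recombinase under the Tet operator, and both received 1 µg/mL doxycycline and were collected at day 16. Sdhc encodes a subunit of succinate dehydrogenase. Duplicate samples were made per line from input chromatin and with each of 3 antibodies, against succinyllysine, H3K4me3 and H3K27me3, 16 samples in all. Each deposited list stood for all 4 ChIP samples of its antibody, so no value per sample, replicate error or difference between fl/fl and fl/wt cells could be given, and the removal of Sdhc could not be checked. Read depth is unknown. The lines are immortalized, and whether each was 1 clone was not given in the sources used here.

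KLF proteins are transcription factors that bind GC-rich and CACCC elements in DNA through zinc fingers at their C-terminal end. They fall into activators (Klf2, Klf4, Klf5, Klf6 and Klf7 among these genes), a group that recruits the corepressor CtBP (Klf3) and a group that recruits the corepressor Sin3A (Klf9, Klf10, Klf11 and Klf13). Several are switched on rapidly by serum, growth factors or cell stress in cultured fibroblasts. H3K4me3 is a histone mark of active promoters, H3K27me3 marks chromatin repressed by Polycomb, and the succinyllysine antibody recognises lysine that carries a succinyl group in any protein.

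All 10 KLF genes carried H3K4me3 within 1000 bp of a gene end, 4 carried succinyllysine there and none carried H3K27me3. Over all protein-coding genes these shares were 55.6% for H3K4me3, 5.42% for succinyllysine and 13.6% for H3K27me3, and 8.46% of genes with H3K4me3 at an end had succinyllysine at an end. The 4 genes with succinyllysine at an end were Klf2, Klf4, Klf6 and Klf7, all from the activators. The 6 activators of the whole family also include Klf5 and, outside the members, Klf1, which had none at an end or within 50 kb. The CtBP-binding Klf3 and the Sin3A-binding Klf13 had succinyllysine inside the gene, and Klf5, Klf9, Klf10 and Klf11 had none within 50 kb. A succinyllysine region touched the gene body itself in 4 of 10 members (Klf6, Klf7, Klf3 and Klf13), against 8.18% of all genes. H3K4me3 touched the body of all 10, against 60.2% of all genes, and H3K27me3 touched none, against 18.7%. Within 50 kb, 6 of 10 members had succinyllysine, against 30.2% of all genes and 30.7% of genes with H3K4me3 at an end. All 10 had H3K4me3 within 50 kb (82.3% of all genes), and 1 had H3K27me3 (51.5% of all genes). These counts rest on 10 genes and on 1 list per antibody, and no test was made of them. The members are not all KLF genes: of the 7 others, 3 had H3K4me3 at an end, none had succinyllysine and 2 had H3K27me3.

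**Figure D1:**
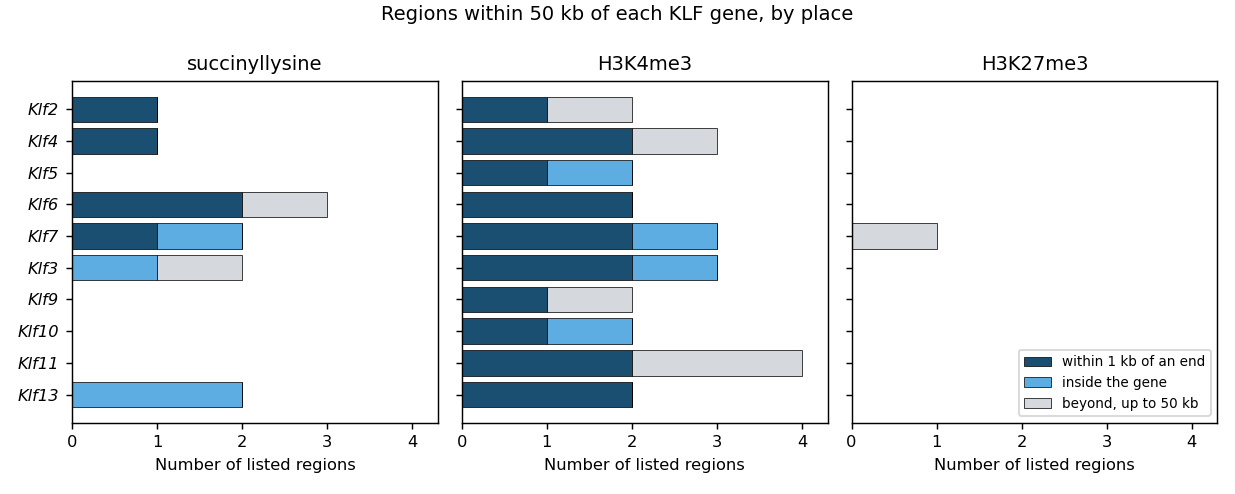
Horizontal bars count the listed regions within 50 kb of each KLF gene for each antibody, coloured by place: within 1 kb of a gene end, inside the gene, or beyond it. Succinyllysine reaches 3 regions at Klf6 and is empty for Klf5, Klf9, Klf10 and Klf11, H3K4me3 lies at an end of all 10 genes, and H3K27me3 has 1 region, beyond Klf7.

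The succinyllysine regions near KLF genes were wider than most of their list. The 11 regions measured 600 to 3900 bp with a median of 1400 bp, while the list of 10888 had a median of 300 bp. Such widths were common on H3K4me3: of the 1840 listed succinyllysine regions that touched it, 1358 measured 600 to 3900 bp. Of the 11, 6 touched H3K4me3 and 5 of these lay wholly on it, against 16.9% of all succinyllysine regions that touched H3K4me3 and 47.0% of the regions of the same width range. The other 5 were the region before Klf2, the pair inside Klf13, and the regions beyond Klf6 and Klf3. The widest single listed H3K4me3 region at a KLF gene was the 6500 bp region of Klf9, wider than 97.7% of the H3K4me3 list. Next came 6100 bp at Klf6 and 5200 bp at Klf3. At Klf3 a listed region of 5000 bp directly adjoined the 5200 bp one, so unbroken H3K4me3 was longest there.

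**Figure D2:**
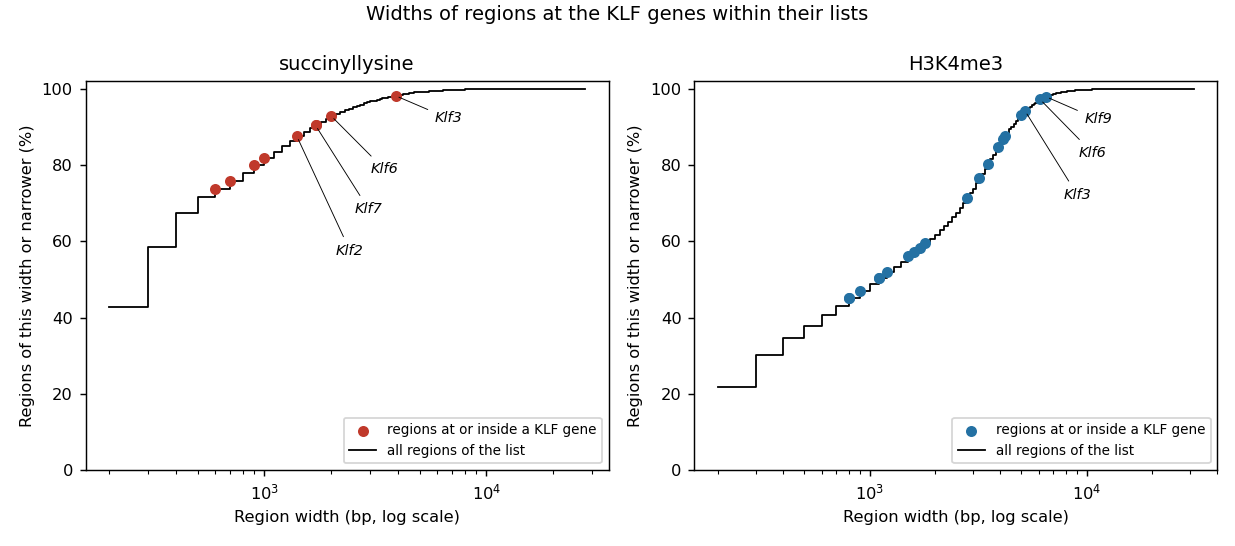
Black lines give the percentage of regions of each list at or below a width (log axis, bp), and coloured points mark the regions at or inside KLF genes. The succinyllysine points lie at 600 bp and above, up to 3900 bp at Klf3, and the H3K4me3 points run from 800 to 6500 bp.

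Among the activators, Klf2 had succinyllysine upstream of its start and off H3K4me3. Klf2, a factor known for quiescence of endothelium and T cells, spans 2593 bp on the plus strand (chromosome 8, 72319062 to 72321654). A 2800 bp H3K4me3 region (72318901 to 72321700) covered the whole gene. A succinyllysine region of 1400 bp (72317401 to 72318800) ran from 1661 to 262 bp upstream of the start and stopped 100 bp short of this H3K4me3 region. The next H3K4me3 region (900 bp) lay 15161 bp away, at the ends of the noncoding genes Gm10282 and Gm40505.

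At Klf4, one of the factors used to reprogram fibroblasts to pluripotency, succinyllysine was also upstream of the start but lay on H3K4me3. The gene (chromosome 4, 55527137 to 55532475, minus strand) carried adjoining H3K4me3 regions of 3500 bp (55529101 to 55532600) and 1600 bp (55532601 to 55534200). The 1000 bp succinyllysine region (55532901 to 55533900) ran from 1425 to 426 bp upstream of the start, wholly on the upstream H3K4me3 region. The long noncoding RNA gene Gm12506 starts 235 bp from the Klf4 start on the opposite strand, and the region lay from 191 to 1190 bp inside it. The part of Klf4 farthest from its start carried no listed region, since H3K4me3 covered 63.2% of the gene.

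Klf6, a factor induced by injury and growth factors, had succinyllysine on both sides of its start. The gene (chromosome 13, 5861489 to 5870393, plus strand) had an upstream region of 1700 bp (5859601 to 5861300), from 1888 to 189 bp before the start. A downstream region of 2000 bp (5861601 to 5863600) lay from 112 to 2111 bp after it. The start itself fell in the interval between them. H3K4me3 was parted there too, into 900 bp upstream (5860401 to 5861300) and 6100 bp over the start and gene (5861401 to 5867500). The upstream H3K4me3 and succinyllysine regions ended at the same grid position, and the downstream succinyllysine region lay wholly on H3K4me3. Another succinyllysine region of 800 bp lay 24088 bp below the gene, 23000 bp from the nearest H3K4me3 region and at no annotated gene.

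At Klf7, known for its part in axon outgrowth and the longest member at 92898 bp, succinyllysine covered the start and ran into the gene. The gene (chromosome 1, 64029448 to 64122345, minus strand) has its listed start at 64121389, below the gene's upper end. Adjoining regions of 1700 bp (64119801 to 64121500) and 900 bp (64118901 to 64119800) ran from 111 bp before to 2488 bp after the start. Both lay on a 3900 bp H3K4me3 region (64117701 to 64121600), and the upper one ended 67 bp before the start of the oppositely oriented noncoding gene Gm35880. A further H3K4me3 region of 1200 bp (64121701 to 64122900) stood upstream of the listed start. It spanned the gene's upper end, with 645 bp inside the gene. Another of 1500 bp lay inside the gene, 32289 bp after the start, in the noncoding gene Gm13748. Klf7 was the member with an H3K27me3 region within 50 kb, a region of 300 bp at a distance of 48655 bp.

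Klf5, which drives proliferation of epithelial progenitors, was the activator among the members with no succinyllysine within 50 kb. The gene (chromosome 14, 99298691 to 99313412) had a 4200 bp H3K4me3 region at its lower end (99297401 to 99301600) and an adjoining 800 bp region inside (99301601 to 99302400). The nearest succinyllysine region was 2918790 bp away, and 2.74% of all protein-coding genes lay farther from one.

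**Figure D3:**
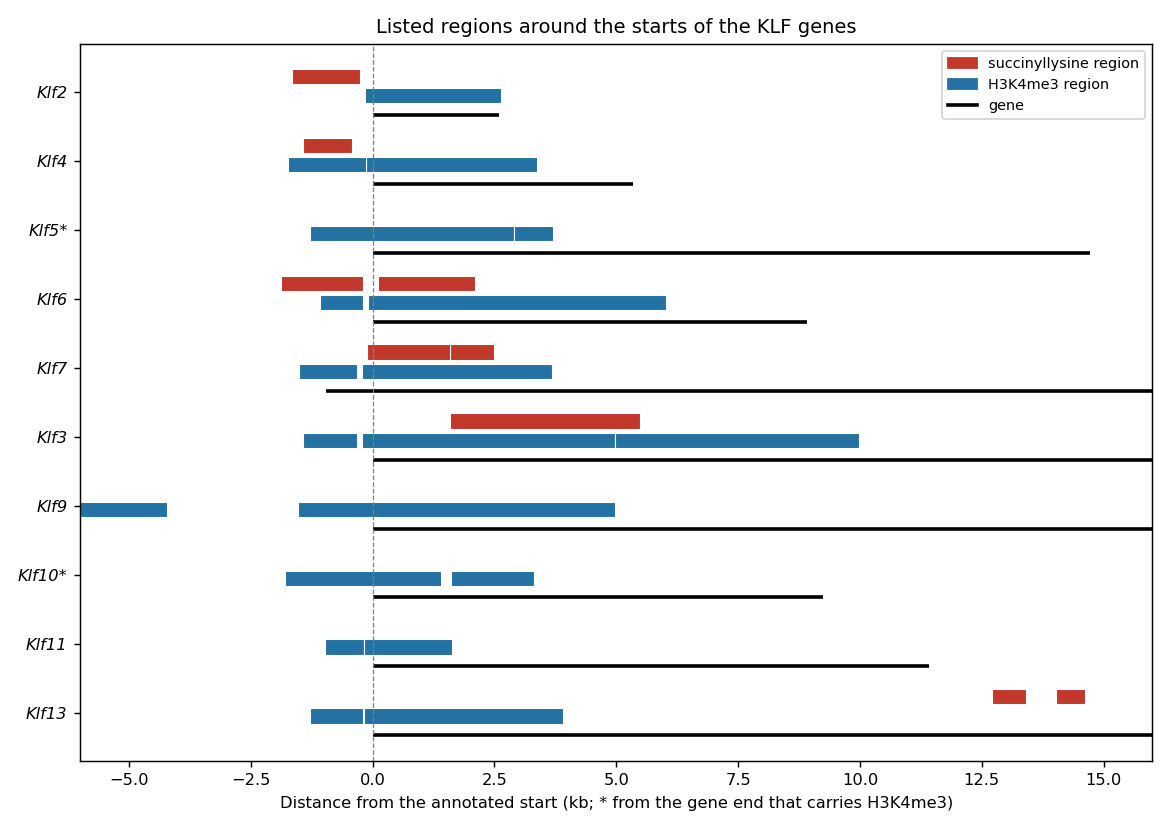
Each row is a KLF gene drawn to scale from 6 kb before to 16 kb after its annotated start (dashed line), with succinyllysine regions in red, H3K4me3 in blue and the gene in black. For Klf5 and Klf10 (asterisks) the line is the gene end that carries H3K4me3 and the gene is drawn to its right. Succinyllysine lies before the start at Klf2 and Klf4, on both sides at Klf6, over it at Klf7, and inside the gene at Klf3 and Klf13.

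Klf3, a CtBP-binding repressor with roles in fat and red blood cells, had the widest succinyllysine region of the family, and it lay inside the gene. The gene (chromosome 5, 64803521 to 64832901, plus strand) held a 3900 bp region (64805101 to 64809000) from 1580 to 5479 bp after the start. This width ranked 204 of the 10888 regions. It lay wholly on H3K4me3, across the junction of a 5200 bp region (64803301 to 64808500) and a 5000 bp region (64808501 to 64813500). The predicted protein-coding gene Gm38457 overlaps Klf3 here on the opposite strand, and the succinyllysine region began 180 bp after the Gm38457 start and ran 4079 bp into that gene. A second succinyllysine region of 1600 bp lay 34499 bp beyond Klf3, 53900 bp from any H3K4me3 region. H3K4me3 covered 9980 bp of Klf3, the most of any member.

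Of the 4 Sin3A-binding members, Klf13 alone had succinyllysine within 50 kb. Klf13 (chromosome 7, 63886351 to 63938915, minus strand) encodes a factor known to activate Ccl5 in T cells. Its regions of 700 bp (63925501 to 63926200) and 600 bp (63924301 to 63924900) lay inside the gene, from 12715 to 14614 bp after the start. The nearest H3K4me3 region was 8800 bp from the first and 10100 bp from the second. At the start itself Klf13 had adjoining H3K4me3 regions of 4100 bp (63935001 to 63939100) and 1100 bp (63939101 to 63940200) and no succinyllysine.

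The other three Sin3A-binding genes showed H3K4me3 alone. Klf9 (chromosome 19, 23141226 to 23168129, plus strand), a target of glucocorticoid and thyroid hormone, had 1 unbroken region of 6500 bp (23139701 to 23146200) over its start. A 2700 bp region 4225 bp away lay at the noncoding gene 2410080I02Rik. Klf10 (chromosome 15, 38291464 to 38300711), a gene induced early by TGF-β, had regions of 3200 bp (38299301 to 38302500) at its upper end and 1700 bp (38297401 to 38299100) inside. Klf11 (chromosome 12, 24651371 to 24662782, plus strand), a TGF-β-inducible relative of Klf10, had adjoining regions of 800 bp (24650401 to 24651200) and 1800 bp (24651201 to 24653000). Further H3K4me3 near Klf11 lay at Cys1 (1600 bp) and at Rrm2 (4600 bp), the gene for a ribonucleotide reductase subunit. The nearest succinyllysine region was 82089 bp from Klf10, 222125 bp from Klf9 and 436918 bp from Klf11. The median distance over all protein-coding genes was 137632 bp, so Klf10 was closer and the other two were farther.

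At 7 of the 8 KLF genes with an annotated start, the H3K4me3 region over the start ended shortly upstream of it. The distance from start to upstream edge was 88 bp at Klf6, 125 bp at Klf4, 161 bp at Klf2, 170 bp at Klf11, 185 bp at Klf13, 211 bp at Klf7 and 220 bp at Klf3. At Klf9 it was 1525 bp. Of all 11282 listed starts covered by H3K4me3, 19.8% had an edge within 300 bp, and the median distance was 933 bp. In 6 of the 7 genes a further H3K4me3 region began upstream within 200 bp of this edge, directly adjoining at Klf4, Klf11 and Klf13 and after a gap of 100 bp at Klf6, Klf7 and Klf3. At Klf4, Klf11 and Klf13 H3K4me3 was thus continuous across the edge. An edge this near with such a further region, adjoining or apart, occurred at 8.77% of all covered starts. In Klf2, the remaining gene, the region beyond the gap was succinyllysine rather than H3K4me3. The region over its start carried no succinyllysine. This arrangement, defined from Klf2 after its values were seen, was found at 19 of the covered starts (0.168%). Downstream, the single listed region over the start reached from 1629 bp at Klf11 to 6011 bp at Klf6. The median was 3801 bp against 2442 bp over all covered starts. At Klf3 this region ended 4979 bp after the start, but an adjoining region continued to 9979 bp, so unbroken H3K4me3 reached farthest there. Edges are known to the 100 bp grid of the lists, and the limits of 300 and 200 bp were set after these values were seen.

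**Figure D4:**
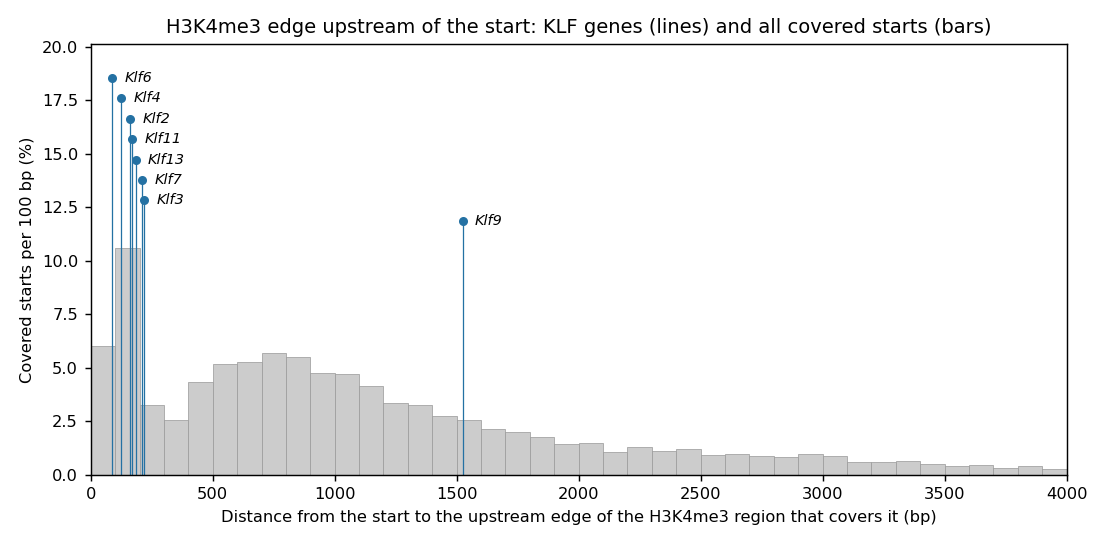
Blue lines mark, for the 8 KLF genes with an annotated start, the distance in bp from the start to the upstream edge of the H3K4me3 region over it, and grey bars give the percentage of all covered starts per 100 bp of that distance. Line height only separates the labels. The bars have a narrow hump below 300 bp and a broad one beyond, and 7 KLF genes stand in the narrow hump while Klf9 stands at 1525 bp.

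Promoter sequences (RefSeq, build GRCm38.p6, 250 bases before to 50 after the start, 5′ to 3′) show where these edges fall. Capitals mark the bases inside the H3K4me3 region that covers the start. In Klf4 and Klf11 the lower-case bases lie in the adjoining upstream H3K4me3 region. The first 4 are the genes with succinyllysine beside the start. Then come Klf11, with adjoining H3K4me3 regions, and Klf9, with an unbroken H3K4me3 region, both without succinyllysine. The windows are chr8:72318812-72319111 (plus strand), chr4:55532426-55532725 (minus), chr13:5861239-5861538 (plus), chr1:64121340-64121639 (minus), chr12:24651121-24651420 (plus) and chr19:23140976-23141275 (plus), in the order of the lines.
Klf2: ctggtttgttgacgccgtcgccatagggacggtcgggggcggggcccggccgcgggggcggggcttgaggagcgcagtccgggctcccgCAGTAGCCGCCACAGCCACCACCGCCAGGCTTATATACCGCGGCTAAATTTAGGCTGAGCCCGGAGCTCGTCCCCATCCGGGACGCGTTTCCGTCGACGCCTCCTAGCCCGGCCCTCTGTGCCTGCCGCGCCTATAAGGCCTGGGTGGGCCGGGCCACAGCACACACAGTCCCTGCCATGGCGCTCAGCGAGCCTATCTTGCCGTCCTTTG
Klf4: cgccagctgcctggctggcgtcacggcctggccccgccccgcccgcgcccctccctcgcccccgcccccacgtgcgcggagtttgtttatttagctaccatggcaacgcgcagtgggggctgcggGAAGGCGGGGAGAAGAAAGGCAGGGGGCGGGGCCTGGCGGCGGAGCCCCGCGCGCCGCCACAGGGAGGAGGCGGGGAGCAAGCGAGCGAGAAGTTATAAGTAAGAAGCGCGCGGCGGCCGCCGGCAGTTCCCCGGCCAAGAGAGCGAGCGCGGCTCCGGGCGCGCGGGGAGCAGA
Klf6: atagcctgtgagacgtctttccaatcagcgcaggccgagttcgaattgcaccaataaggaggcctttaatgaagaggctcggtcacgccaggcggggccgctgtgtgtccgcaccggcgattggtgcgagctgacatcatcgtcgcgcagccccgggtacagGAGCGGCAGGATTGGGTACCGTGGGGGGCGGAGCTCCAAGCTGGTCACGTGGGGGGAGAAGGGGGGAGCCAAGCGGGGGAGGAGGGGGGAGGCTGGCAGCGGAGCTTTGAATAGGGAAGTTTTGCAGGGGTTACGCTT
Klf7: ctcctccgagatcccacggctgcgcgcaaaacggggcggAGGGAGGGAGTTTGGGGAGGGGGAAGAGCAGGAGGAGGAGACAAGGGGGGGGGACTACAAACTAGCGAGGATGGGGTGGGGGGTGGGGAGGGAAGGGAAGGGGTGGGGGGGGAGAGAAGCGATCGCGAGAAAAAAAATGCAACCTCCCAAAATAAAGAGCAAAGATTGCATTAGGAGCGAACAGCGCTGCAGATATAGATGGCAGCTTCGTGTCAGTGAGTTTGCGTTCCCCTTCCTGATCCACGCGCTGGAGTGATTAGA
Klf11: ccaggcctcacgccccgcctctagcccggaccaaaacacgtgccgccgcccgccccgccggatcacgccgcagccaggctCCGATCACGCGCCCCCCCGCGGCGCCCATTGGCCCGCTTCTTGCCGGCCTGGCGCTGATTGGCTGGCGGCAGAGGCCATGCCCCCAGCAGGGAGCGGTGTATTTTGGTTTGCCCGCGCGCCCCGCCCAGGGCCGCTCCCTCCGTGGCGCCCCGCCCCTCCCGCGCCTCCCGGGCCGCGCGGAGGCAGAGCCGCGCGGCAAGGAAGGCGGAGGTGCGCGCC
Klf9: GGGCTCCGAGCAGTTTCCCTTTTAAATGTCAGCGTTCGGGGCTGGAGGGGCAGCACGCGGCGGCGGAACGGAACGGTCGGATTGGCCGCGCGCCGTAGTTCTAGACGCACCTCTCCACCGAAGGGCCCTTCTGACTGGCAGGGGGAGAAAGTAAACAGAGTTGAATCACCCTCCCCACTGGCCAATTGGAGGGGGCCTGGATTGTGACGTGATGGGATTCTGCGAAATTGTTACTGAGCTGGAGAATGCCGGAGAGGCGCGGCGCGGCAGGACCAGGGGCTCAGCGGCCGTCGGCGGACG

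In Klf6 the capitals cover 138 of the 300 bases. The 62 bases at the other end of the window lay in both succinyllysine and the upstream H3K4me3 region. The 100 bp between lay in neither. In Klf4 175 bases are in capitals, in Klf2 211, in Klf11 220 and in Klf7 261, and the Klf9 window is in capitals throughout. Succinyllysine covered the last 161 bases of the Klf7 window, the start among them. All 8 KLF promoters were richer in CpG than the median of 13 per window over 21237 promoters, with 16 at Klf7, 23 at Klf6, 28 at Klf9, 29 at Klf3, 32 at Klf2 and Klf13, 40 at Klf4 and 42 at Klf11.

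Motif letters were searched on both strands of these windows. GGGCGG, the GC box, occurred in 7 of the 8 KLF promoters, all but Klf9, against 46.2% of all promoters. CACCC, the core of a KLF element, occurred in 5 of 8 (59.5% of all), CCAAT in 4 (38.2%) and CACGTG in 3, Klf4, Klf6 and Klf11 (7.84%). TGANTCA, a pattern wider than the AP-1 element because it allows any middle base, was in Klf9 alone, as TGAATCA (6.99% of all). TATAAA was in none (12.6%). The CArG box of serum response factor was in none (1.53%), and the MEF2 consensus was in Klf2 alone (2.75%), as ctaaatttag, beginning 118 bp before the start and within the capitals. GGGCGG and CACCC matches overlapped once each in Klf3 and Klf13. A match is a run of letters and not a measured binding site.

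Succinyllysine lay beside the start of some KLF genes. A region lay within 1000 bp of the start in 4 of the 8 genes with a start, against 5.04% of all 21262 starts. It was upstream alone at Klf2 and Klf4, covered the start at Klf7 and stood on both sides without covering the start at Klf6. Over all starts, 2.15% had succinyllysine upstream alone, 1.16% downstream alone and 1.46% over the start, and the arrangement of Klf6 occurred at 58 starts (0.273%). The share of all starts under succinyllysine within 5000 bp was highest 600 bp upstream (3.01%) and had a second, lower maximum 500 bp downstream (2.08%). Between them it dipped to 1.46% at the start, the lowest value within 500 bp on each side. The regions of Klf2, Klf4 and Klf6 included the position 600 bp upstream, and those of Klf6 and Klf7 the position 500 bp downstream.

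**Figure D5:**
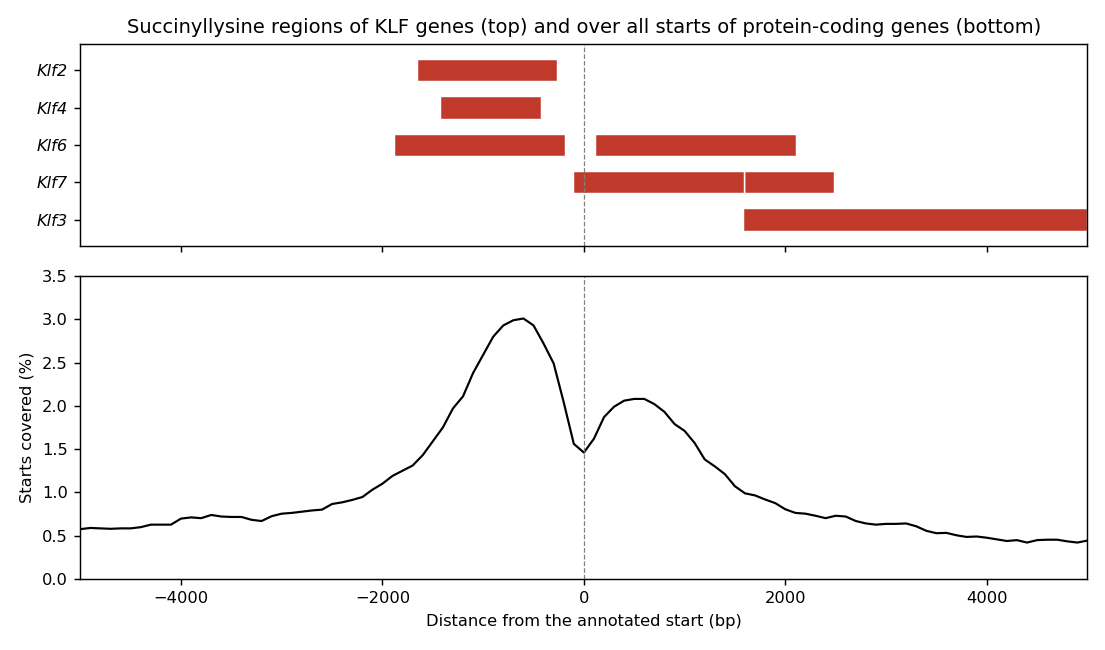
The upper panel draws succinyllysine regions of 5 KLF genes by distance from the annotated start in bp, and the lower panel gives the percentage of the 21262 starts of protein-coding genes under a succinyllysine region at each distance. The curve peaks at 3.01% 600 bp upstream, dips to 1.46% at the start and reaches 2.08% 500 bp downstream, while the Klf3 region begins 1580 bp after the start.

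H3K27me3 was distant from most of the 10 KLF genes chosen here. No H3K27me3 region lay within 50 kb of 9 of the 10, against 48.5% of all genes and 55.4% of genes with H3K4me3 at an end. The same 9 had none within 100 kb, against 35.3% and 39.5%. The nearest region was 110350 bp from Klf13, 233661 bp from Klf2, 261325 bp from Klf9, 341036 bp from Klf4, 379863 bp from Klf10, 503390 bp from Klf5, 533199 bp from Klf3, 804807 bp from Klf6 and 811918 bp from Klf11. The median distance over all protein-coding genes was 46135 bp, close to the 48655 bp of Klf7.

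Among the 7 other KLF genes, those with H3K4me3 at an end were Klf1, Klf12 and Klf16, and those with H3K27me3 were Klf14 and Klf17. Within 50 kb, 4 of these 7 genes had H3K27me3, near the 51.5% of all genes. Klf17, known from early embryos, had 36 such regions, Klf14 had 8, Klf1 had 7 and Klf15 had 2. Klf16 had 3 succinyllysine regions within 50 kb, none at its ends. Klf8 and Klf15 had H3K4me3 inside the gene and at neither end. Among the 9 Sp genes, the nearest relatives of the KLF genes, 6 had H3K4me3 at an end (55.6% of all genes), 4 had H3K27me3 (13.6%) and 1 (5.42%), Sp1, had succinyllysine (1600 bp, with an H3K4me3 region of 2500 bp also at an end). Sp5, Sp6, Sp8 and Sp9 were the 4 with H3K27me3. Within 50 kb, 5 of the 9 Sp genes had succinyllysine, beside 30.2% of all genes, and Sp2 had 2 regions inside the gene.

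Of 18 genes for KLF cofactors and regulators, 15 had H3K4me3 at an end (55.6% of all genes), 1 had succinyllysine (5.42%) and none had H3K27me3 (13.6%). The succinyllysine count is near the share of all genes. The corepressor genes Ctbp1, Ctbp2, Sin3a and Sin3b had widest H3K4me3 regions of 5100 bp, 5600 bp, 5100 bp and 3400 bp, in that order, and no succinyllysine at an end. The gene with succinyllysine was Mef2d (3300 bp, with H3K4me3 of 6800 bp), which encodes a MEF2 factor, a family that acts upstream of Klf2 and Klf4. The ends of Srf, which encodes serum response factor, had H3K4me3 of 1600 bp and no succinyllysine.

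As a check of the labelled cell type, H3K4me3 lay at an end of 11 of 12 fibroblast marker genes, Thy1 being the exception, and H3K27me3 at none, beside 55.6% and 13.6% of all genes. Succinyllysine lay at an end of 3 of the 12, beside 5.42% of all genes, and within 50 kb of 6 of them, beside 30.2%. The 3 were Col1a2, which encodes a collagen I chain (1300 bp), Fn1, which encodes fibronectin (1300 bp), and Vim, which encodes vimentin (1600 bp). For epithelial markers H3K4me3 lay at 3 of 6, near the share of all genes, and H3K27me3 at 5 of 6. H3K4me3 and H3K27me3 each lay at 1 of 4 blood markers and at 0 of 3 endothelial markers, while of 3 neuronal markers 1 had H3K4me3 and 2 had H3K27me3. Succinyllysine lay at an end of none of the epithelial, blood, endothelial and neuronal markers, beside 5.42% of all genes. Within 50 kb it lay near 2 of 6 epithelial, 1 of 4 blood, 0 of 3 endothelial and 2 of 3 neuronal markers, beside 30.2%.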

How the data were processed

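Per the labels' protocols, formaldehyde-fixed chromatin was digested by MNase, sonicated and sequenced with or without antibody enrichment. The submitters' processing notes name Bowtie2 2.2.3 and mm10. Caller, threshold, use of input and pooling of samples were not given in the sources used here. The authors deposited 1 region list per antibody, with start and end positions and no height, score or value per sample. Every start and end lay on a grid of 100 bp, and positions were taken as 1-based, both ends included.

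Gene ends came from a RefSeq table, and starts, strands and promoter sequences from a RefSeq promoter table, both of build GRCm38.p6, which shares the coordinates of mm10. Background genes were the 21883 protein-coding genes on chromosomes with a listed region. The promoter table held 21262 starts of 17491 of these genes, and 1 start each for 8 of the 10 KLF genes, not for Klf5 and Klf10. An overlap of at least 1 bp counted. Depth is unknown, no test could be made over samples, and no p-value was computed. The interval routines were tested on simulated data. Analysis used Python 3.11.15 with pandas 2.3.3, numpy 2.4.6 and matplotlib 3.10.9.

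The members and gene lists were chosen with earlier results of these data known. Named genes were all 10 members, genes of the other lists with succinyllysine at a gene end, and genes touched by a succinyllysine region near a member. Further names are examples chosen after their values were seen. Alternatives were other windows, neighbourhoods, width limits, overlaps and backgrounds. The limits for H3K4me3 edges beside starts, and the arrangement counted for Klf2, were set after the data were seen.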

Additional observations from a re-analysis of the deposited data

How the results depend on the processing

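The number of KLF genes marked at an end ranged from 3 to 5 for succinyllysine, and stayed at every KLF gene examined for H3K4me3 and at 0 for H3K27me3, with windows of 500 and 2500 bp, starts alone, wider regions alone or merged regions. Klf7 lost its succinyllysine call with 500 bp and Klf3 gained one with 2500 bp. With genes carrying H3K4me3 at an end as background, 8.46% had succinyllysine at an end. H3K27me3 near KLF genes gave 0 regions and 0 genes within 25 kb, and 3 regions, all near Klf7, within 100 kb. Within 100 kb Klf10 also gained succinyllysine, as the seventh gene. For the windows of 500 and 2500 bp, wider regions and merged regions, the share of all genes was not computed. Nor was it computed for 25 kb, or for succinyllysine within 100 kb. Whether the contrast with all genes held at those settings was therefore not tested. Limits chosen after seeing the data mattered for the H3K4me3 edge: 2 KLF genes had it within 150 bp, against 12.0% of covered starts. A further region without any gap was found at 3 KLF genes, and the share of all covered starts at that limit was not computed. Of 50 alternative values in all, 43 left the value within 1.5 times. No paired analysis was possible because the lists hold no values per sample, and for the same reason no replicate could be left out. A stricter caller threshold could not be applied, since regions carry no score. Depth is unknown, so an unlisted mark is not shown to be absent.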

Other observations

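Some regions of each list directly adjoined the next one instead of being joined to it, as at Klf3, Klf4, Klf5, Klf7, Klf11 and Klf13. This held for 417 succinyllysine regions (3.83%), 1911 H3K4me3 regions (7.17%) and 12789 H3K27me3 regions (13.0%), and no regions of a list overlapped. Why these were left apart was not given in the sources used here.

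Over the starts of all protein-coding genes, H3K4me3 covered 53.1% at the start and 51.3% at 100 bp upstream. H3K27me3 covered 4.36% at the start, 6.72% at 1400 bp upstream and 6.95% at 2100 bp downstream.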
